A study of Sus scrofa with 6 samples.

Results

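The SLC25 mitochondrial carriers were taken from RNA sequencing of the ventricular myocardium of Tibetan minipigs, as every row of the expression table whose gene name begins with SLC25A. The rule found 35 of the 13288 listed genes. The males had undergone thoracotomy, either alone (sham, n = 3) or with a suture constriction of the descending aorta (DAC, n = 3), a surgical pressure overload with no genetic change, and tissue was taken 12 weeks after surgery; their ages were not given in the sources used here. Each sample is 1 minipig, called sham 1 to sham 3 and DAC 4 to DAC 6, and the replicates are separate animals. Values are FPKM, a measure scaled for transcript length and sequencing depth, so levels can be compared between genes.

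SLC25 proteins sit mostly in the inner mitochondrial membrane and move nucleotides, phosphate, organic acids, amino acids, acylcarnitines and cofactors between the cytosol and the matrix. In heart muscle they export ATP, bring in ADP and phosphate for the ATP synthase, pass fatty acids inward as acylcarnitines, and carry the malate, oxoglutarate, aspartate and glutamate of the malate-aspartate shuttle. The comparison asks whether transcripts of these transporters differ after chronic pressure overload.

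For the comparison, log2(FPKM + 1) was fitted with limma in the 11029 genes reaching 1 FPKM in 3 or more samples. Differences are DAC minus sham on that scale, which understates the change of genes near 1 FPKM. DEG, for differentially expressed gene, stands here for an unadjusted P under 0.05 at any fold change. At that threshold 5.27% of all genes tested were downregulated and 3.25% were upregulated, and 0 genes reached an adjusted P under 0.05 (limma, Benjamini-Hochberg), against 358 upregulated and 581 downregulated without adjustment. The median difference over all genes was -0.016. Among DEGs 61.9% were downregulated, or 44.9% after removal of the genes of the mitochondrial genome with rescaling of all others. Mitochondrially encoded genes held up to 25.3% of total FPKM in sham hearts, 27.1% and 27.2% in DAC 6 and DAC 4, and 32.8% in DAC 5. Markers of cardiomyocytes were abundant, with all 10 listed genes tested and a summed level of 16120 to 17220 FPKM in sham and 15576 to 18464 FPKM in DAC samples. Of the 10, 1 was a downregulated DEG, RYR2, which averaged 366 FPKM in sham and 274 FPKM in DAC (log2 difference -0.41), and 0 were upregulated DEGs. Of 10 fibroblast markers 5 were upregulated DEGs, the matrix genes COL1A1, COL1A2, COL3A1, LUM and POSTN (3.25% of all genes). DCN, MFAP5, THY1, FBLN1 and PDGFRA were not DEGs, with log2 differences of -0.03 to 0.24. The sum of the 10 was 545 to 627 FPKM in sham and 756 to 876 FPKM in DAC samples. The part of these shifts in the values below was not tested, and in bulk tissue fewer cells of a type and less RNA per cell cannot be told apart. The other marker sums overlapped between the groups: 10 endothelial genes (3 downregulated and 2 upregulated DEGs), 9 smooth muscle and pericyte genes (0 and 1), 8 leukocyte genes (1 and 0), 3 red blood cell genes and 3 adipocyte genes (no DEGs). ADIPOQ did not pass the filter and read 0.022 to 0.171 FPKM in sham and 0.602, 0.151 and 0.0832 FPKM in DAC 4, 5 and 6. LIPE, the 1 adipocyte gene tested, averaged 3.90 FPKM in sham and 3.04 FPKM in DAC, with overlap.

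Of the 35 carriers, 30 passed the filter, and 1 of them, the coenzyme A carrier SLC25A42, was a downregulated DEG, against 5.27% of all genes. None was an upregulated DEG, against 3.25%. Both counts lie near the shares of all genes. The mean of log2(FPKM + 1) was lower in DAC for 18 of the 30 and higher for 12, while it was lower in 53.4% of all genes tested. The median difference of the 30 was -0.12, and it was -0.041 without DAC 4 and -0.038 without sham 2. All DAC samples lay below all sham samples in 3 carriers (SLC25A4, SLC25A11 and SLC25A42), and 8.91% of all genes did so. In none did all DAC samples lie above, where the share of all genes was 6.01%. For 23 of the 30 the group means of FPKM lay within 20% of each other, 4 were at least 20% lower and 3 at least 20% higher in DAC. The smallest adjusted P among the carriers was 0.553 (limma, Benjamini-Hochberg). The median standard error of a carrier was 0.15, close to the 0.14 of all genes.

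The carriers spanned a 1201-fold range of mean level. Of the 35, 2 averaged over 100 FPKM, 10 between 10 and 100, 19 between 1 and 10, and 4 under 1. SLC25A3, SLC25A4, SLC25A6 and SLC25A11 formed the top of the order, and each stood above the next in every sample. Below SLC25A11 the neighbours in the order overlapped over the 6 samples, with the exception of SLC25A17 above SLC25A47 at the bottom. Spread within a group differed widely among the 30 tested carriers. Their coefficient of variation over the sham samples ranged from 1.04% for SLC25A3 to 60.0% for SLC25A44, with a median of 15.2%. Over the DAC samples the same 30 ranged from 7.96% for SLC25A37 to 44.9% for SLC25A15, with a median of 16.4%.

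**Figure D1:**
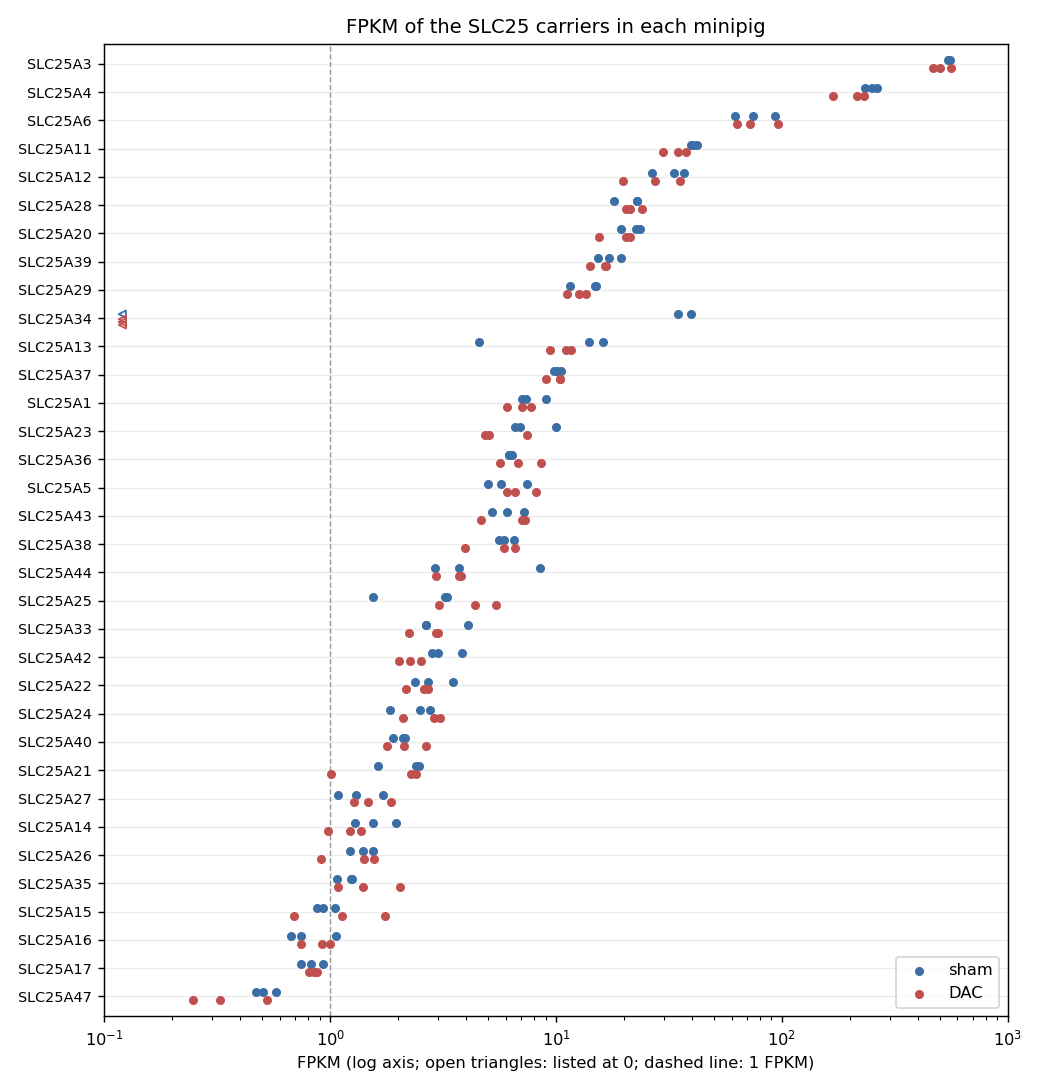
FPKM (log axis) of the carriers described here in each minipig, ordered by mean, with sham in blue, DAC in red and a dashed line at 1 FPKM. The order runs from SLC25A3 at about 530 FPKM to SLC25A47 under 1 FPKM, the groups overlap for all plotted carriers but SLC25A4, SLC25A11 and SLC25A42, and SLC25A34 is listed at 0 in 4 samples (open triangles).

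The summed FPKM of the carriers was a smaller part of the transcriptome in DAC hearts, but the sums overlapped without SLC25A3, SLC25A4 and SLC25A34. Summed over the 35 carriers, the level was 1162, 1116 and 1155 FPKM in sham 1, 2 and 3, and 1006, 1026 and 1006 FPKM in DAC 4, 5 and 6. The groups did not overlap, and the mean changed by -11.5%. SLC25A34, whose estimates were unstable (described last), added to the sum in 2 sham samples. Without it the sum was 1116 to 1127 FPKM in sham and the same as before in DAC, a change of -9.57% in the mean. As a share of nuclear-encoded FPKM and without SLC25A34, the carriers made up 0.517% to 0.527% in sham and 0.473% to 0.494% in DAC samples, a change of -6.72% in the mean, again with no overlap. Most of the sum is SLC25A3 and SLC25A4, which together gave 789 to 809 FPKM in sham and 697 to 728 FPKM in DAC. The other 32 carriers without SLC25A34 summed to 312 to 327 FPKM in sham and 278 to 329 FPKM in DAC, ranges that overlapped.

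The lowest of the 6 values lay in DAC 4 for 11 of the 30 tested carriers, in DAC 5 for 4 and in DAC 6 for 6. Over all genes tested these hearts held the lowest value in 21.1%, 23.6% and 12.4%. The sham samples held the lowest value of 2, 2 and 5 carriers, and each at most 16% of all genes.

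**Figure D2:**
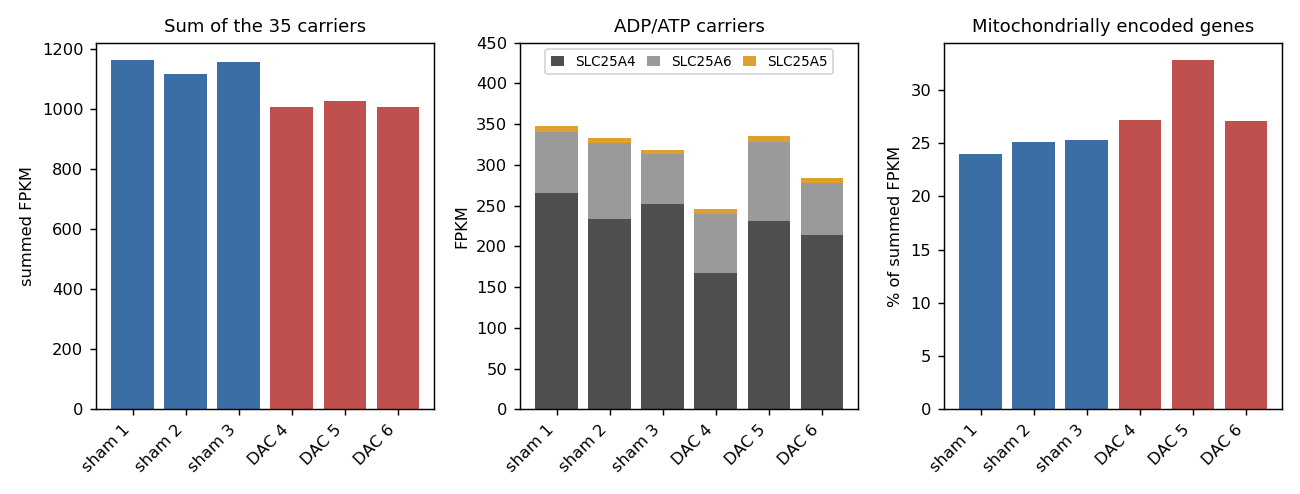
Bars per minipig of the summed FPKM of the 35 carriers (sham blue, DAC red), the FPKM of the ADP/ATP carriers stacked (SLC25A4 dark grey, SLC25A6 light grey, SLC25A5 ochre), and, in the colours of the groups, the percentage of summed FPKM in mitochondrially encoded genes. The carrier sum is 1116 to 1162 in sham and 1006 to 1026 in DAC, SLC25A4 makes up most of the ADP/ATP carriers in every heart, and the mitochondrially encoded share is above 27% in every DAC heart.

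The ADP/ATP carriers exchange matrix ATP for cytosolic ADP, and SLC25A4 (ANT1) is the form of heart and skeletal muscle. SLC25A4 (ENSSSCG00000015790, chr15:46193699-46200994) was measured at 265, 234 and 252 FPKM in the sham samples and at 168, 231 and 214 FPKM in the DAC samples. All DAC values were lower than all sham values, although DAC 5 and sham 2 nearly met. The mean changed by -18.3%, with a log2 difference of -0.30 (95% interval -0.64 to 0.03, limma adjusted P = 0.596). The size rested on single hearts: it was -0.17 without DAC 4, and -0.40 without DAC 5, which made it a DEG.

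SLC25A6 (ANT3), a widely expressed form, read 74.6, 93.2 and 62.0 FPKM in sham and 72.1, 96.4 and 63.4 FPKM in DAC hearts. The groups covered the same range, with a log2 difference of 0.01 (interval -0.47 to 0.49). SLC25A5 (ANT2), the form of growing cells, read 7.47, 5.72 and 4.99 FPKM in sham and 6.09, 8.14 and 6.61 FPKM in DAC hearts, with overlap and a log2 difference of 0.18 (interval -0.21 to 0.56).

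The make-up of the ADP/ATP carriers varied between hearts more than it separated the groups. SLC25A4 gave 76.4%, 70.3% and 79.0% of the FPKM of these forms in sham and 68.2%, 68.9% and 75.4% in DAC hearts, which overlap. The small SLC25A5 share was 2.15%, 1.72% and 1.57% in sham and 2.47%, 2.42% and 2.32% in DAC hearts, which do not. These paralogs are similar in sequence and have processed copies in mammalian genomes, and the sources used here do not say how reads that fit several places were counted, so the split between them is uncertain. SLC25A6 lies on an unplaced scaffold, where its listed span of 27958 bases takes in ASMTL on the same strand, while its RefSeq entry spans 2782 bases. ASMTL read 2.39 to 3.26 FPKM.

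SLC25A3 (ENSSSCG00000000886, chr5:85284311-85292451) brings phosphate, and copper, into the matrix and was the most abundant carrier in every heart. It read 544, 555 and 552 FPKM in sham and 560, 465 and 502 FPKM in DAC hearts. The sham values hardly varied, and DAC 4 exceeded all of them while DAC 5 and DAC 6 were lower. The log2 difference was -0.12 (interval -0.37 to 0.13, adjusted P = 0.772). The ratio of SLC25A3 to SLC25A4 was 2.05 to 2.37 in sham hearts and 3.34, 2.01 and 2.34 in DAC 4, 5 and 6.

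The calcium-regulated ATP-Mg/phosphate carriers, which adjust the adenine nucleotide pool of the matrix, had mean differences of both signs. SLC25A23 (ENSSSCG00000013550, chr2:72625531-72641796) read 6.90, 6.59 and 9.95 FPKM in sham and 5.05, 4.85 and 7.46 FPKM in DAC hearts. DAC 6 lay among the sham values, and the log2 difference was -0.38 (interval -0.85 to 0.09, adjusted P = 0.640), -0.21 without sham 3, and -0.55 without DAC 6, which made it a DEG. SLC25A25 had the highest difference of any carrier, 0.53 (interval -0.06 to 1.12, adjusted P = 0.596), which was 0.29 without sham 3, and 0.71 without DAC 5, where it was an upregulated DEG. Its values were 3.28, 3.22 and 1.55 FPKM in sham and 4.37, 3.04 and 5.42 FPKM in DAC hearts, and DAC 5 fell among the sham values. An unnamed gene on the same strand (ENSSSCG00000022295) spans SLC25A25 entirely, and it read 25.5 FPKM in sham 3, where SLC25A25 was lowest, and under 12 FPKM in the other hearts. How far shared reads set either value was not tested. SLC25A24 ranged from 1.84 to 2.77 FPKM in sham and from 2.11 to 3.06 FPKM in DAC hearts, with a log2 difference of 0.13.

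Carriers of di- and tricarboxylates all had lower means in DAC. SLC25A11 (ENSSSCG00000032472, chr12:51970805-51975548), which exchanges oxoglutarate for malate in the malate-aspartate shuttle, read 40.6, 39.5 and 42.1 FPKM in sham and 34.8, 37.7 and 29.8 FPKM in DAC hearts. Every DAC value was below every sham value, and the mean changed by -16.3%. The log2 difference was -0.26 (interval -0.53 to 0.02, adjusted P = 0.596), and it was -0.17 without DAC 6, and -0.33 without DAC 5, where it was a DEG. The table places PFN1 across part of the same stretch and strand, at 61.8 to 80.9 FPKM. The citrate carrier SLC25A1 had a log2 difference of -0.15 (interval -0.47 to 0.16) and the oxodicarboxylate carrier SLC25A21 one of -0.16 (interval -0.70 to 0.38), both with overlap.

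A further row of this group, which the table lists by identifier without a name, matched SLC25A10, the dicarboxylate carrier that exchanges malate or succinate for phosphate. It was identified after the values were seen and lies outside the rule. It read 8.37, 8.11 and 7.93 FPKM in sham and 5.12, 6.86 and 5.80 FPKM in DAC hearts. The groups did not overlap, the mean changed by -27.1%, and the log2 difference was -0.41 (interval -0.69 to -0.12), a downregulated DEG with a limma adjusted P of 0.508. The call held whichever 1 sample was left out. ACTG1 and MRPL12 overlap its position, MRPL12 on the same strand at 55.5 to 81.2 FPKM.

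The aspartate-glutamate carriers supply the other limb of the malate-aspartate shuttle. SLC25A12 (aralar, ENSSSCG00000015949, chr15:77895935-78098383), the form of heart and brain, read 33.3, 26.5 and 37.0 FPKM in sham and 19.9, 27.4 and 35.3 FPKM in DAC hearts. The DAC samples spread over a wider range that overlapped the sham samples, with a log2 difference of -0.25 (interval -0.76 to 0.27, adjusted P = 0.763) that was -0.04 without DAC 4. SLC25A13 (citrin) read 4.58, 14 and 16.1 FPKM in sham and 11.1, 11.6 and 9.36 FPKM in DAC hearts, so that sham 1 alone was low. The log2 difference was 0.05 (interval -0.89 to 0.98), and without sham 1 it was -0.46, past the DEG threshold. In sham 1 an unnamed gene on the same strand (ENSSSCG00000015337, chr9:76286988-76349257), which lies at the end of the listed SLC25A13 span, read 196 FPKM, and it is listed at 0 in the other 5 hearts. The listed span of SLC25A13 is 594851 bases and that of its RefSeq entry 199186 bases. The glutamate carrier SLC25A22 overlapped between the groups, with a log2 difference of -0.14.

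SLC25A20 (ENSSSCG00000011366, chr13:31523821-31553286), which takes acylcarnitines into the matrix for beta-oxidation, read 23.7, 19.4 and 22.6 FPKM in sham and 15.6, 21.3 and 20.5 FPKM in DAC hearts. DAC 4 was the lowest and the other DAC hearts lay among the sham values. The log2 difference was -0.19 (interval -0.54 to 0.16, adjusted P = 0.725), and -0.06 without DAC 4.

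SLC25A42 (ENSSSCG00000013927, chr2:58753371-58801832), which brings coenzyme A into the matrix, was the 1 carrier past the threshold. It read 3.84, 2.99 and 2.82 FPKM in sham and 2.02, 2.26 and 2.52 FPKM in DAC hearts. All DAC values were lower, and the mean fell from 3.22 ± 0.548 to 2.26 ± 0.250 FPKM (SD, n = 3 minipigs each). The log2 difference was -0.36 (standard error 0.13, interval -0.68 to -0.05), with an adjusted P of 0.553 from limma. The DEG call was lost without sham 1 (-0.26), without DAC 4 (-0.31) and without DAC 5 (-0.36). Among the other carriers of coenzymes and vitamins, SLC25A26, which imports S-adenosylmethionine, had a log2 difference of -0.07 with overlap. SLC25A16 and the peroxisomal SLC25A17 did not pass the filter. They averaged 0.823 and 0.833 FPKM in sham and 0.887 and 0.841 FPKM in DAC hearts, with overlap for both. The row matched by identifier to the folate and flavin carrier SLC25A32 averaged 1.12 FPKM in sham and 1.02 FPKM in DAC hearts.

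**Figure D3:**
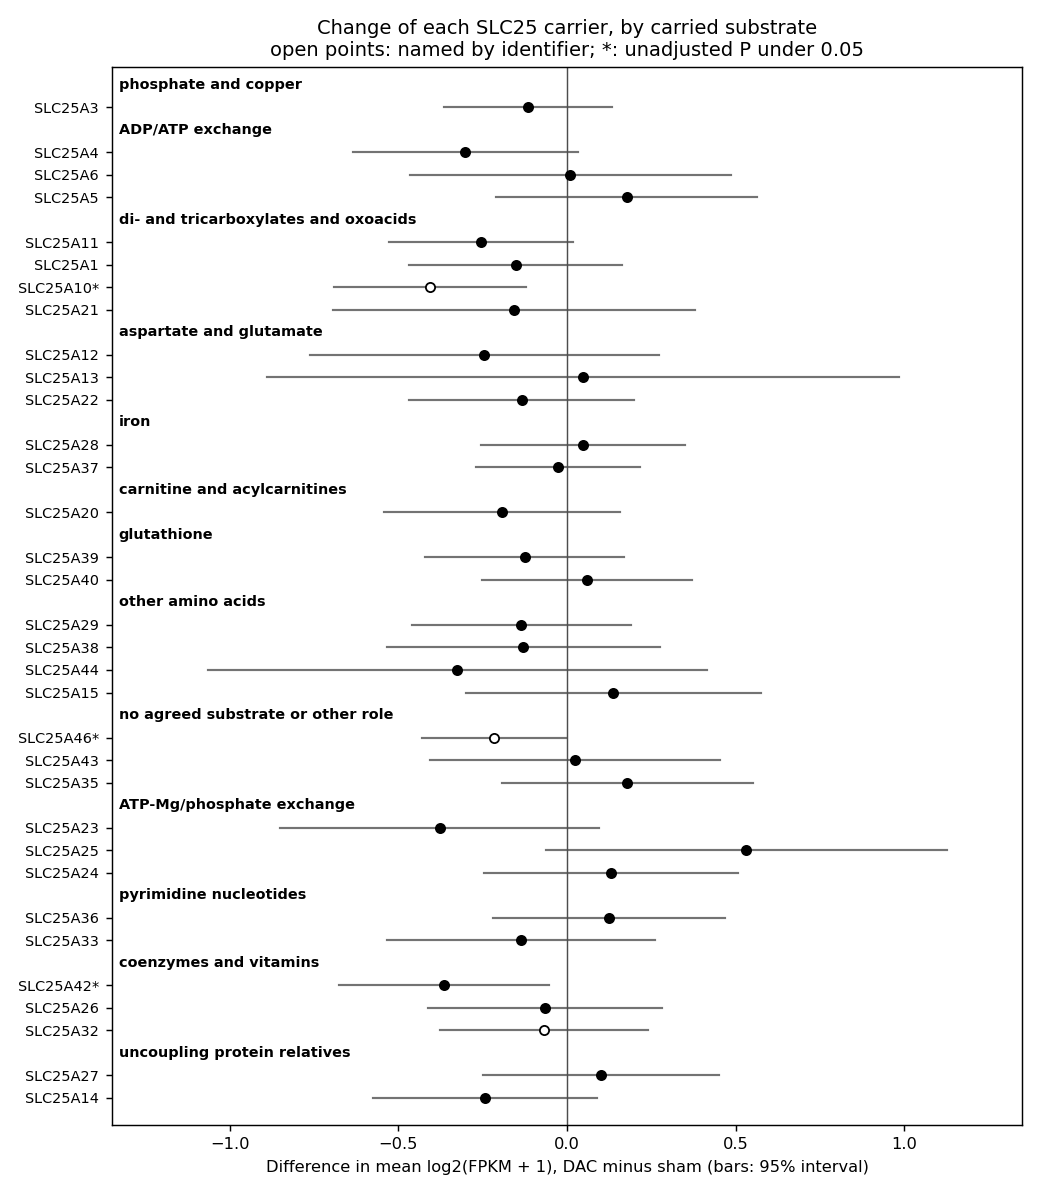
Difference in mean log2(FPKM + 1), DAC minus sham, for the 30 tested carriers (filled points) and 3 rows matched by identifier (open points), grouped by carried substrate, with bars for the 95% interval from limma. The interval lies wholly below 0 for SLC25A42 among the filled points and for SLC25A10 and SLC25A46 among the open ones, and it includes 0 for the rest.

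The mitoferrins, which carry iron for heme and iron-sulfur clusters, were close between the groups. SLC25A28 (mitoferrin 2, ENSSSCG00000037536, chr14:110795307-110805570) read 22.8, 22.8 and 18.1 FPKM in sham and 20.5, 24.0 and 21.3 FPKM in DAC hearts, with a log2 difference of 0.05 (interval -0.26 to 0.35). SLC25A37 (mitoferrin 1) stayed between 9.04 and 10.5 FPKM in all hearts, with a difference of -0.03 (interval -0.27 to 0.22), whose sign turned under 2 other scalings. Of the glutathione carriers, SLC25A39 (ENSSSCG00000030167, chr12:18914434-18919759) read 17.2, 15.3 and 19.4 FPKM in sham and 14.1, 16.6 and 16.5 FPKM in DAC hearts, a log2 difference of -0.13 (interval -0.42 to 0.17). SLC25A40 averaged 2.04 and 2.19 FPKM, with overlap.

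Carriers of other amino acids also overlapped between the groups. SLC25A29 (ENSSSCG00000002520, chr7:121178161-121192278), for basic amino acids, read 11.5, 14.9 and 15.1 FPKM in sham and 11.2, 13.6 and 12.6 FPKM in DAC hearts, a log2 difference of -0.14 (interval -0.46 to 0.19). The glycine carrier SLC25A38 had a difference of -0.13, with DAC 4 lowest at 3.96 FPKM. SLC25A44, which carries branched-chain amino acids, read 8.50 FPKM in sham 1 and 2.90 to 3.79 FPKM in the other 5 hearts. Its difference of -0.33 became 0.06 without sham 1. The ornithine carrier SLC25A15 read 0.877 to 1.05 FPKM in sham and 0.692, 1.75 and 1.12 FPKM in DAC hearts.

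Of the pyrimidine nucleotide carriers, SLC25A36 (ENSSSCG00000036855, chr13:81750031-81791891) read 6.39, 6.19 and 6.20 FPKM in sham and 8.58, 6.77 and 5.66 FPKM in DAC hearts. The sham values were nearly equal and lay inside the DAC range, and the log2 difference was 0.12 (interval -0.22 to 0.47). SLC25A33 had a difference of -0.14, with overlap. Of the relatives of the uncoupling proteins, SLC25A27 (UCP4, ENSSSCG00000001720, chr7:41426170-41457884) read 1.71, 1.08 and 1.30 FPKM in sham and 1.85, 1.46 and 1.27 FPKM in DAC hearts, which overlap. SLC25A14 (UCP5) averaged 1.60 and 1.19 FPKM, with a log2 difference of -0.24 (interval -0.57 to 0.09, adjusted P = 0.655).

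Of the 35 carriers, 13 overlap another listed gene in position, among them SLC25A12 (HAT1), SLC25A22 (RPLP2) and SLC25A44 (SMG5 and BGLAP).

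The last group holds carriers with no agreed substrate or another role. SLC25A34 (ENSSSCG00000032950, chr6:74909705-74914426) is listed at 34.7 and 39.6 FPKM in sham 1 and sham 3 and at 0 in sham 2 and all DAC hearts. It did not pass the filter, and no fold change is given because an exact 0 in such a table can be a failed estimate. FBLIM1 overlaps it on the same strand and read 6.65 to 10.3 FPKM in all hearts, and SLC25A34 is 1 of 5 rows of the whole table that are listed at 0 in 1 or more samples and at 10 FPKM or more in another. SLC25A43 and SLC25A35 overlapped between the groups, with log2 differences of 0.02 and 0.18. SLC25A47 did not pass the filter and read 0.248 to 0.578 FPKM.

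The row matched by identifier to SLC25A46, an outer membrane protein of mitochondrial dynamics, was chosen after its values were seen. It read 14.6, 14.8 and 14.9 FPKM in sham and 12.8, 12.3 and 12.7 FPKM in DAC hearts. Spread within each group was small and the groups did not overlap. The log2 difference was -0.22 (standard error 0.09), a downregulated DEG with a limma adjusted P of 0.585. The call was lost when any 1 sample was left out, and under median scaling, quantile normalization or removal of mitochondrially encoded genes. With the 3 rows matched by identifier counted in, 3 of 33 tested carriers were downregulated DEGs (5.27% of all genes), 5 had all DAC samples below all sham samples (8.91% of all genes), and the median difference was -0.13.

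Genes that work beside the carriers were described by 10 lists with 77 tested genes, of which 9 were downregulated and 2 upregulated DEGs (5.27% and 3.25% of all genes). All DAC samples lay below all sham samples in 19 of the 77 (8.91% of all genes) and above them in 2 (6.01% of all genes). A lower mean was found in 55 (53.4% of all genes). Leaving out the mitochondrially encoded genes gave 4 and 4 DEGs, and leaving out sham 1 gave 2 and 0.

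The ATP synthase uses the ADP and phosphate that SLC25A4 and SLC25A3 bring in. Of its 13 genes on the list, 4 were downregulated DEGs (5.27% of all genes) and 12 had a lower mean (53.4% of all genes). Their median difference was -0.20. The 13 are not the whole enzyme, as ATP5F1B had no row under its symbol and mitochondrially encoded subunits were not listed. ATP5F1D, a subunit of its central stalk, read 297, 294 and 286 FPKM in sham and 224, 253 and 228 FPKM in DAC hearts. The groups were well apart, with a log2 difference of -0.32 (adjusted P = 0.512). ATP5PF (-0.29), ATP5MC1 (-0.27) and ATP5F1A (-0.22) were the other DEGs. The ATP5F1D call held in every alternative run. The ATP5F1A call was lost when any 1 sample was left out, the ATP5MC1 call when any 1 but DAC 5 was, and the ATP5PF call without DAC 4, DAC 5, sham 1 or sham 3. Those of ATP5F1A and ATP5MC1 were also lost under both other scalings and without mitochondrially encoded genes. That of ATP5MC1 was lost as well with a minimum of 5 FPKM, with no filter and with the variance of each gene on its own. The most abundant of the 13, ATP5PO, averaged 459 and 384 FPKM (limma adjusted P = 0.640).

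Of 7 enzymes of the malate-aspartate and glycerophosphate shuttles, 3 were downregulated DEGs (5.27% of all genes), and the median difference was -0.26. MDH2, the matrix malate dehydrogenase, read 688, 677 and 719 FPKM in sham and 541, 596 and 604 FPKM in DAC hearts, with a log2 difference of -0.26 (adjusted P = 0.563). GOT2, the matrix aspartate aminotransferase, averaged 301 and 252 FPKM, a difference of -0.26 (adjusted P = 0.585). GPD1, the cytosolic glycerol-3-phosphate dehydrogenase, read 10.2, 6.31 and 10.6 FPKM in sham and 4.65, 5.77 and 5.03 FPKM in DAC hearts, a difference of -0.68 (adjusted P = 0.50). The GPD1 call held in every alternative run. The calls of MDH2 and GOT2 were lost under median scaling and quantile normalization, that of MDH2 also without DAC 4 or any 1 sham sample, and that of GOT2 without mitochondrially encoded genes or any 1 sample but DAC 5. Every DAC heart was below every sham heart in 4 of the 7 enzymes, these 3 among them (8.91% of all genes). The 3 were named for a P under 0.05 in the same samples, so their separation is no further evidence. Among the malate-aspartate carriers it was so for SLC25A11 but not for SLC25A12 or SLC25A13. The difference between enzymes and carriers was not tested.

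Creatine kinase and adenylate kinase genes had 1 downregulated DEG among 6 (5.27% of all genes), the mitochondrial creatine kinase CKMT2 (123 and 92.3 FPKM, log2 difference -0.43). Its call was lost when any 1 sample but DAC 6 was left out, with a minimum of 5 FPKM, and without mitochondrially encoded genes. The most abundant, CKM, averaged 428 and 364 FPKM (adjusted P = 0.615). The log2 difference of CKM was -0.24, or -0.35 without DAC 5, where it was a DEG. The calcium uniporter list had 1 downregulated DEG among 8 (5.27% of all genes), MICU3, at 6.60 and 4.98 FPKM (difference -0.35). The MICU3 call was lost without DAC 5, DAC 6, sham 1 or sham 2. SMDT1 was the most abundant of the 8 (74.1 and 64.1 FPKM). The 5 carnitine shuttle genes held no DEG, with a median of -0.15. ACSL1, the most abundant of them, read 117, 104 and 95.7 FPKM in sham and 60.1, 131 and 68.9 FPKM in DAC hearts. Its log2 difference was -0.36 (limma adjusted P = 0.727), or -0.70 without DAC 5, where ACSL1 was a DEG. The 4 outer membrane channel and pyruvate carrier genes (median -0.11, VDAC2 most abundant at 120 and 113 FPKM), the 12 genes of carrier import (median -0.020, TIMM10 27.7 and 30.6 FPKM) and the 9 of mitochondrial iron use (median -0.036, ISCU 96.7 and 90.2 FPKM) held none.

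Upregulated DEGs were UCP2 and PPARGC1A. Among relatives of the family under other symbols, UCP2, an uncoupling protein homolog, read 4.16, 4.99 and 4.84 FPKM in sham and 5.51, 10.2 and 6.44 FPKM in DAC hearts, all DAC values being higher. Its log2 difference was 0.53 (limma adjusted P = 0.579), or 0.30 without DAC 5. The UCP2 call was lost without DAC 5, without any 1 sham sample, and with the variance of each gene on its own. MTCH1, the most abundant relative, averaged 40.6 ± 1.14 and 35.8 ± 0.487 FPKM (SD, n = 3 each), without overlap. Of the 10 regulators of mitochondrial genes, PPARGC1A (PGC-1alpha, a coactivator of mitochondrial gene transcription) read 24.4, 25.6 and 20.1 FPKM in sham and 34, 25.3 and 46.7 FPKM in DAC hearts, so DAC 5 lay among the sham values. Its difference was 0.54 (limma adjusted P = 0.584). The PPARGC1A call was lost when any 1 sample but DAC 5 was left out, and with the variance of each gene on its own. ESRRA, the nuclear receptor that PPARGC1A coactivates, averaged 65.9 and 56.7 FPKM (difference -0.22, limma adjusted P = 0.635).

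**Figure D4:**
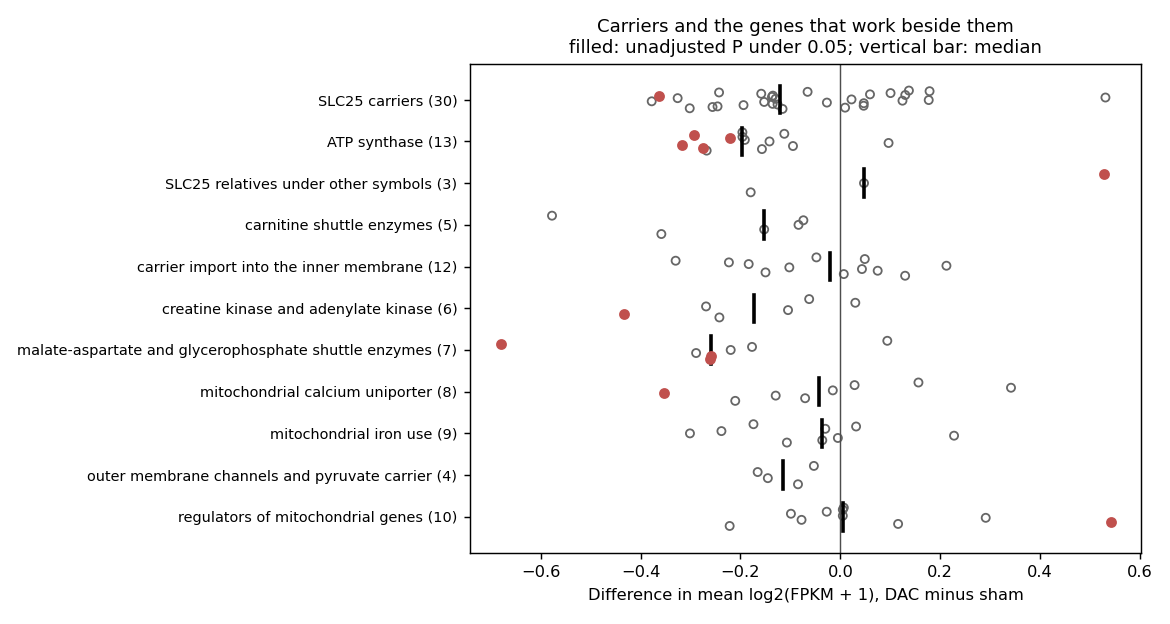
Difference in mean log2(FPKM + 1), DAC minus sham, of each tested carrier and of each tested gene in the 10 lists, with the number of genes in brackets, filled points for an unadjusted P under 0.05 and a bar at the median. The medians are -0.12 for the carriers, -0.20 for the ATP synthase and -0.26 for the shuttle enzymes, and UCP2 and PPARGC1A are the filled points above 0.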

How the data were processed

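RNA from the ventricles of 3 sham and 3 DAC minipigs was made into NEBNext Ultra libraries and read from both ends (Illumina HiSeq). The authors deposited 1 table of FPKM, with 1 column for each minipig and none pooled. The submitters' processing notes name HISAT2 and the build susScr11, on which positions are given; the quantification program is not given in the sources used here. The highest sample of each listed gene has at least 0.500 FPKM. The depth is unknown: among 2903 low genes at most 4 shared 1 log2 ratio between a pair of samples, which left whole-read steps undetected, and the spread between minipigs is the only error given.

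Members, groups by substrate and the 10 lists of neighbouring genes were chosen with earlier results of these data known. Rows without a name were matched by identifier. Counts and sums cover all 35 carriers, of which 1 is not reported here by name. With limma 3.58.1 in R 4.3.3, log2(FPKM + 1) was compared with a variance trend over the mean, in genes reaching 1 FPKM in 3 or more samples, and P was adjusted by the Benjamini-Hochberg method over the 11029 genes. The steps were tested on simulated data. Genes named with full values are carriers with P under 0.05, the most abundant carrier of each substrate group and the ADP/ATP carriers; SLC25A13, SLC25A25 and the rows matched by identifier were added after their values were seen. Of the lists, those with P under 0.05 and the most abundant were named. The marker lists cover cardiomyocytes, fibroblasts, endothelial cells, smooth muscle cells and pericytes, leukocytes, red blood cells and adipocytes. Alternatives tried were median scaling, a stricter filter (5 FPKM) or none, mitochondrially encoded genes left out, quantile normalization, unmoderated variances, a pseudocount of 0.1, and leaving out each sample in turn; counting in the rows matched by identifier was added after seeing the data.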

Additional observations from a re-analysis of the deposited data

How the results depend on the processing

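With 3 minipigs a group, an exact permutation P cannot go below 0.10, and the depth behind low FPKM is unknown. No paired analysis was possible because separate minipigs were assigned to the groups at random. The number of downregulated carriers was 1 in all samples, 0 of 17 with a minimum of 5 FPKM, 2 of 35 with no filter (SLC25A34 the second), 3 of 33 with the identifier rows, and 0 to 2 with 1 sample left out (0 when DAC 4 was dropped). The number of upregulated carriers was 0 to 1 with 1 sample left out (SLC25A25, without DAC replicate 5). The median carrier difference was -0.078 with mitochondrially encoded genes left out and -0.11 to -0.038 with 1 sample left out. For the neighbouring genes, 9 downregulated DEGs became 5 after median scaling, 4 after quantile normalization, 4 with mitochondrially encoded genes left out and 2 to 7 with 1 sample left out. The 2 upregulated became 4 with mitochondrially encoded genes left out, 0 with the variance of each gene on its own and 0 to 2 with 1 sample left out. Over all genes, 358 upregulated DEGs became 165 with a minimum of 5 FPKM and 241 to 470 with 1 sample left out, and 581 downregulated became 359 to 674. Fewer genes or samples were tested in several of these alternatives; otherwise the cause was not tested.

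Signs turned as follows. SLC25A37 was at 0.0137 with mitochondrially encoded genes left out and 0.0011 after quantile normalization, and VDAC2 at 0.0079 after quantile normalization. With 1 sample left out, differences ran from -0.16 to 0.16 for SLC25A6, -0.0579 to 0.10 for SLC25A28, -0.46 to 0.35 for SLC25A13, -0.0592 to 0.0347 for SLC25A37, -0.0135 to 0.25 for SLC25A36, -0.0775 to 0.20 for SLC25A43, -0.26 to 0.052 for SLC25A38, -0.59 to 0.0567 for SLC25A44, -0.22 to 0.0211 for SLC25A33, -0.0436 to 0.15 for SLC25A40, -0.29 to 0.0842 for SLC25A21, -0.15 to 0.0628 for SLC25A26, -0.0422 to 0.31 for SLC25A15 and -0.17 to 0.0137 for ISCU. SLC25A42 kept its sign and its call under median scaling, quantile normalization, mitochondrially encoded genes left out, no filter, the pseudocount of 0.1 and the variance of each gene on its own.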
